A study of Mus musculus with 3 samples.

Results

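The numbered cadherin and non-clustered protocadherin genes were examined in a map of Sp9 on chromatin of the neonatal mouse olfactory bulb. Sp9 is a zinc finger transcription factor of olfactory bulb interneurons. The members were all peaks of the deposited list whose gene name was Cdh or Pcdh followed by a number, with or without a final x. This rule found 78 of 19979 peaks, and they carried 28 gene names. The RefSeq mouse gene table holds 35 protein-coding genes with such names, so 7 of them had no peak in the list. These 7 were Cdh5, Cdh16, Cdh17, Cdh19, Pcdh11x, Pcdh12 and Pcdh18.

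The Sp9 group had 2 immunoprecipitation libraries made with a homemade antibody to Sp9, and the input group had 1 library made without antibody. All came from whole olfactory bulbs of CD1 mice on postnatal days 0 to 2, with no genetic change named in the labels, so no cell type within the bulb was separated. The list gives 1 interval, 1 score and 1 gene name for each peak shared between the immunoprecipitations. It gives no value for either library, so no spread between replicates is known and no test across samples could be made. Peaks are described as linked to a gene where the authors gave them its name. The list does not state how far away that gene lies or whether the peak is in a promoter, an intron or between genes. Positions are those of the list, in mouse build mm9.

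Cadherins are calcium-dependent adhesion proteins that span the cell membrane and bind cadherins on the neighbouring cell. Type I cadherins, such as E-cadherin and N-cadherin, hold tissues together through catenins. Type II cadherins are expressed in overlapping patterns in the brain and help neurons to sort and to find partners. Non-clustered protocadherins, among them the delta1 and delta2 groups, are single genes that act in cell sorting, migration and wiring, unlike the clustered protocadherins, which share a locus.

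Cadherin and protocadherin genes were linked to Sp9 peaks in 28 of 35 cases, or 80% (exact binomial interval over genes 63.1 to 91.6%), beside 55.4% of 21900 protein-coding genes and 58.7% of those outside the olfactory, vomeronasal, taste and trace amine receptor families. All 5 type I cadherins had a peak, as did 11 of 13 type II cadherins, 3 of 5 other numbered cadherins and 9 of 12 non-clustered protocadherins. The interval covers counting error only, treats genes as independent, and describes this list. A peak scoring 210.06, the median of the list, or more was linked to 19 of the 35 genes (54.3%), beside 35.4% of coding genes. A score of at least 500 was reached in 8 of the 35 genes (22.9%), beside 9.49% of coding genes. The score is the authors' own value for each peak, its formula is not stated, and it ranks peaks within this list only.

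The classes differed in how many peaks a gene had. Type II cadherins had 36 peaks, or 2.77 per gene, and non-clustered protocadherins had 29, or 2.42 per gene. Type I cadherins had 8 peaks, or 1.6 per gene, and the other numbered cadherins had 5, or 1 per gene. Over all coding genes the mean was 0.819 peaks per gene. Among genes with a peak, the median was 3 for type II cadherins, 3 for non-clustered protocadherins and 1 for type I cadherins, beside 1 for all coding genes with a peak. At least 3 peaks were linked to 12 of the 35 genes (34.3%), beside 5.62% of coding genes. With peaks below the list's median left out, the order of the classes turned, at 0.8 peaks per gene for type I cadherins, 0.692 for type II cadherins and 0.5 for non-clustered protocadherins. The order also differed for peaks per Mb of the interval between the nearest peaks with other names on both sides of a gene. For genes with a peak, medians were 5.85 per Mb for type I cadherins, 2.31 for non-clustered protocadherins and 1.15 for type II cadherins. The median length of that interval was 331, 1301 and 2947 kb for these classes, in that order. Genes of a class are not replicates, and the difference between classes was not tested.

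**Figure D1:**
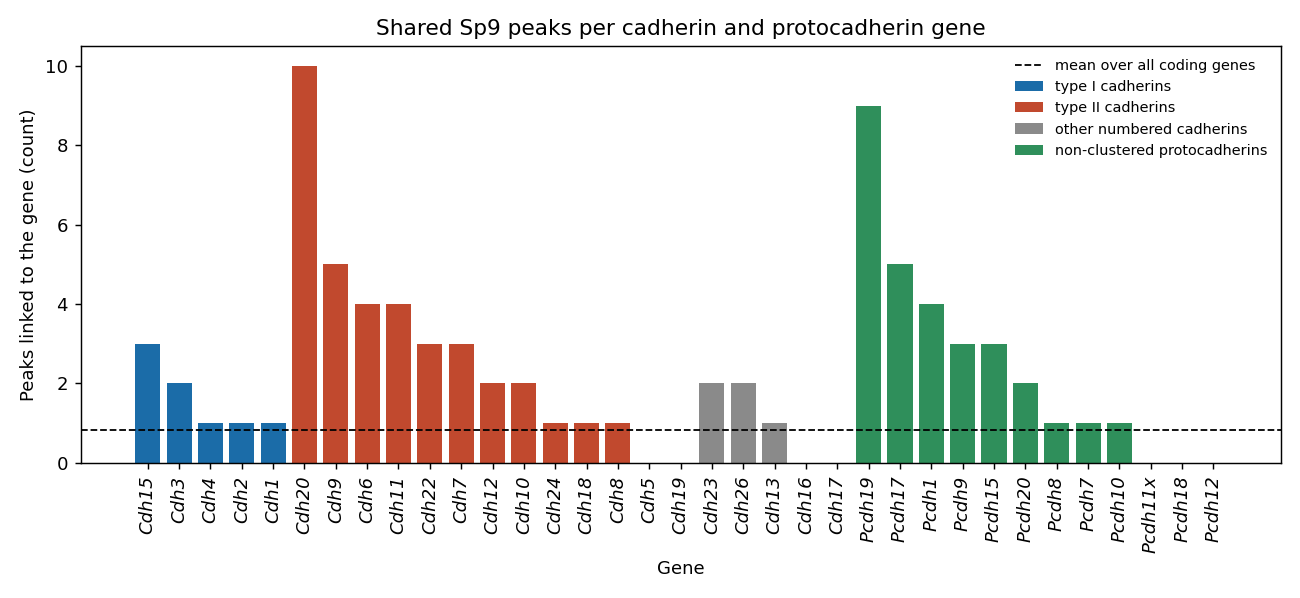
Number of shared Sp9 peaks (y axis, count) linked to each of the 35 genes (x axis), coloured by class, with the mean of 0.819 over all coding genes as a dashed line. Cdh20 with 10 and Pcdh19 with 9 peaks stand above the rest, whose counts reach 5, and 7 genes have 0.

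The stretch covered by the peaks of 1 gene separated type I cadherins from most of the other members. Span is the distance from the start of the first to the end of the last peak of a gene with 2 or more peaks. The 8 type II cadherins with 2 or more peaks had spans of 53.7 to 2209 kb with a median of 1486 kb. The 6 non-clustered protocadherins had spans of 22.8 to 2082 kb with a median of 877 kb. The 2 type I cadherins had spans of 7.04 kb (Cdh3) and 19.9 kb (Cdh15), below every span of the other 2 classes. A span of at least 1 Mb was found for 5 of the 8 type II cadherins and 3 of the 6 non-clustered protocadherins, and for 8 of all 18 members with 2 or more peaks (44.4%), beside 2.19% of 3383 coding genes with 2 or more peaks on 1 chromosome. The median span was 556 kb for the 18 members and 35.1 kb for those coding genes. With peaks below the list's median left out, only Cdh20 of the 18 members kept 2 or more peaks, with 3 over 1904 kb.

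More peaks give longer spans, so spans were set beside coding genes with as many peaks. The median span of coding genes was 22.6 kb with 2 peaks, 58.6 kb with 3, 138 kb with 4 and 175 kb with 5. Of the 16 members with 2 to 5 peaks, 11 had a longer span than that median. Cdh7, with 3 peaks over 1395 kb, was exceeded by 1 of the 689 coding genes with 3 peaks. Cdh6, with 4 peaks over 1705 kb, was exceeded by 2 of 259, and Cdh9, with 5 peaks over 2209 kb, by 2 of 129. Below the median lay Cdh3, Cdh15, Cdh22, Cdh23 and Pcdh1. The 2 members with more peaks had few genes to be set beside, and their spans did not stand out. Of the 5 coding genes with 9 peaks, Pcdh19 included, 2 had a shorter span than Pcdh19 and 2 a longer one. Of the 4 with 10 peaks, Cdh20 included, 2 had a shorter span than Cdh20 and 1 a longer one. No peak with another name lay inside the span of any of the 18 members, which was also so for 99.1% of coding genes with 2 or more peaks.

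**Figure D2:**
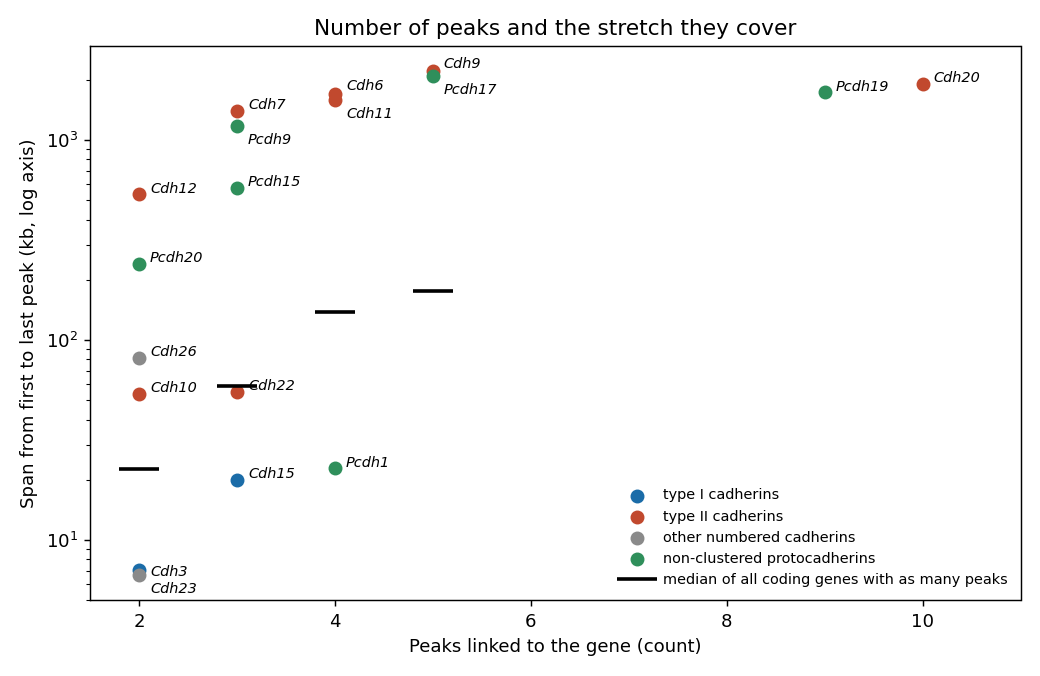
Span from the first to the last peak (y axis, kb, log axis) against the number of linked peaks (x axis, count) for the 18 members with 2 or more peaks, with black bars at the medians of all coding genes with 2, 3, 4 and 5 peaks. Both type I cadherins lie under these bars, and 8 members lie above 1000 kb.

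Peaks of type II cadherins and protocadherins often stood alone. Of the 78 member peaks, 38 (48.7%) had no other peak of any name within 100 kb, beside 19.1% of all peaks. By class these were 21 of 36 type II peaks, 14 of 29 protocadherin peaks, 2 of 8 type I peaks and 1 of 5 peaks of the other cadherins. The median score of the member peaks was 156, and 21 of 78 (26.9%) reached the median of the list, beside 50.0% of all peaks. Type I peaks did not share in this, with a median of 209 and 4 of 8 at the list's median. Counted by the highest peak of each gene, the median was 302 for the 28 members and 273 for coding genes with a peak. Among genes with 2 or more peaks the direction was the other way, at 266 for the 18 members and 337 for coding genes. The 50 member peaks other than the highest of a gene had a median score of 127, and the 5767 such peaks of coding genes had 135. A highest peak with at least 2 times the score of the next was present in 7 of 18 members (38.9%), close to the 42.8% of coding genes.

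The 8 member peaks with a score of at least 500 were 1613 to 3569 bp wide, and the other 70 were 411 to 1755 bp wide. The 8 strong peaks belonged to 8 different genes, namely Pcdh8, Cdh4, Cdh9, Cdh22, Cdh2, Cdh23, Cdh20 and Pcdh7. They came from all 4 classes. The weakest of them, the Pcdh7 peak at 528.69, ranked 2077 of the 19979 peaks in the list. So 8 of 78 member peaks was close to the share of all peaks that scored as high. At the other end, 9 of the 28 genes (32.1%) had no peak that reached the list's median, near the 36.0% of coding genes with a peak. These included Pcdh19 and Pcdh17, which had many peaks.

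**Figure D3:**
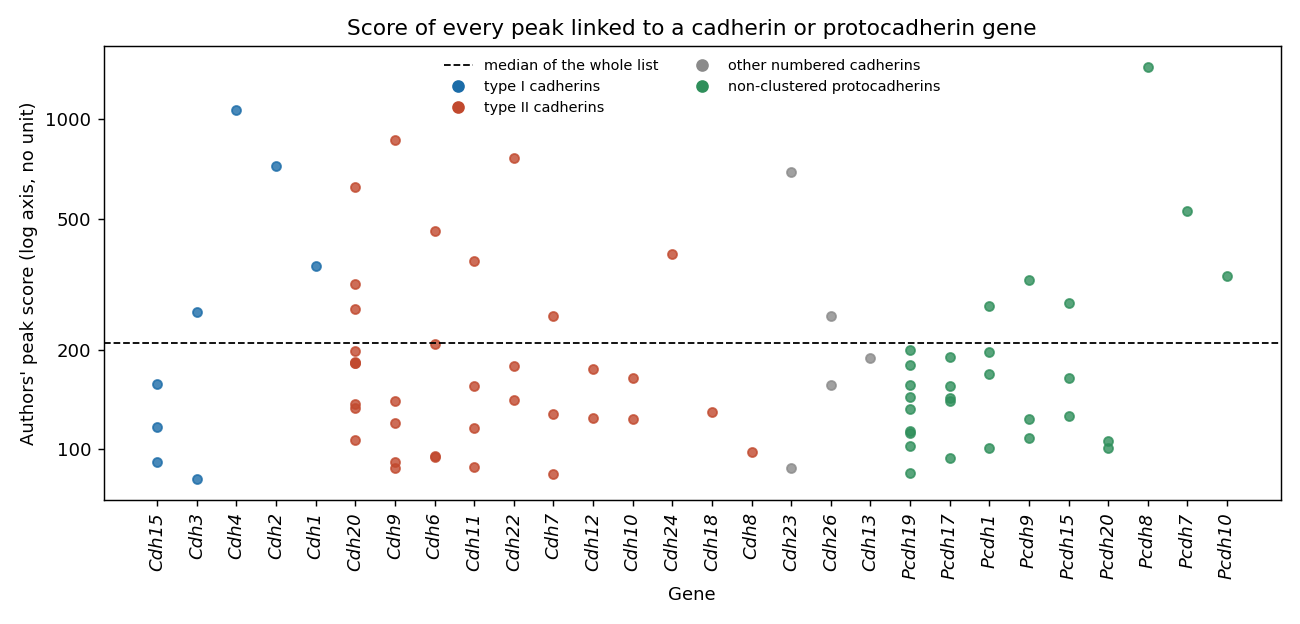
Authors' peak score (y axis, no unit, log axis) of each of the 78 peaks by gene (x axis), coloured by class, with the list's median of 210.06 as a dashed line. Of the 78 points 57 lie under the line, and the highest is the Pcdh8 peak at 1444.93.

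Type I cadherins had fewer peaks per gene than type II cadherins and non-clustered protocadherins, and some of these type I peaks were strong. Their 1.6 peaks per gene were above the mean of 0.819 over all coding genes. Cdh4, the R-cadherin of the retina and brain, had a single peak on chromosome 2 from 179176572 to 179178638 that scored 1064, above 99.1% of all peaks. Cdh2, the N-cadherin of neural progenitors and synapses, had a single peak on chromosome 18 from 16965265 to 16968406 that scored 719.97, above 95.9% of all peaks. Both peaks had no other peak within 100 kb. Cdh1, the E-cadherin of epithelia, had a single peak on chromosome 8 from 109127021 to 109128159 that scored 357.83. Cdh3, the placental P-cadherin, had peaks of 81.11 and 260.68 on the same chromosome, the second from 109034333 to 109035940. The Cdh3 and Cdh1 peaks were neighbours in the list, 91.1 kb apart. Cdh15, the M-cadherin of muscle, had peaks of 91.63 from 125388811 to 125389462, 157.51 from 125394299 to 125395000 and 116.76 from 125408062 to 125408756 on chromosome 8. It had the most peaks of the class and the lowest highest score.

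Among type II cadherins, Cdh20 had the most peaks. Its 10 peaks lay on chromosome 1 over 1910 kb, and 12 coding genes of the whole table had 10 or more. The last 4 lay within 58.9 kb of each other: 182.32 from 106865176 to 106866187, 183.43 from 106890186 to 106891113, 622.7 from 106916074 to 106917742 and 106.47 from 106923409 to 106924098. The strongest peak of the gene was in that group and was above 93.4% of all peaks. Of the 6 peaks ahead of it, 2 formed a pair at the start of the span, with scores of 316.1 from 105013621 to 105014786 and 182.02 from 105050176 to 105051019. The next 2 stood alone, with 197.79 from 105315690 to 105316740 and 132.9 from 105822333 to 105823332. The last pair had 137.15 from 106114255 to 106114937 and 264.96 from 106175952 to 106176928. The longest gap, 688 kb, lay between that pair and the group at the end. Widths ran from 682 to 1668 bp.

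Cdh9, a synaptic type II cadherin of the hippocampus, had 1 strong peak and 4 weak ones over the longest span of all members. The strong peak, of score 863.15 on chromosome 15 from 17195949 to 17197562, was the last of the 5, above 98.0% of all peaks, and 1144 kb from the nearest peak of any name. The weak ones had 91.52 from 14988557 to 14989549, 139.69 from 15575825 to 15576848, 119.69 from 15837909 to 15838452 and 87.73 from 16050929 to 16051554. The highest score was 6.18 times the next. Widths were 543 to 1613 bp, and all 5 peaks had no other peak within 100 kb.

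Cdh6 and Cdh11 had 4 peaks each with the second of them the strongest. Cdh6, which guides retinal axons to their targets, had 208.16 from 13102762 to 13103497, 456.9 from 14098756 to 14099971, 95.43 from 14461130 to 14461766 and 94.74 from 14806911 to 14807989 on chromosome 15. Cdh11, known from bone and mesenchyme as well as brain, had 116.21 from 103732198 to 103732999, 371.03 from 104671141 to 104672269, 155.25 from 104888911 to 104889715 and 88.04 from 105308335 to 105309366 on chromosome 8. In both genes the gaps between neighbouring peaks exceeded 200 kb, at 345 to 995 kb for Cdh6 and 217 to 938 kb for Cdh11. Cdh7, a neural type II cadherin, had 253.09 from 110931186 to 110932283, 127.93 from 111768109 to 111768991 and 84.12 from 112325736 to 112326309 on chromosome 1. Its strongest peak was the first, and gaps were 557 and 836 kb. Widths over these 3 genes were 573 to 1215 bp.

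Cdh22, a cadherin of the pituitary and brain, and Cdh10 had the short spans of the class, 55.0 and 53.7 kb. The 3 peaks of Cdh22 lay within 55.0 kb of chromosome 2, with 140.78 from 165006145 to 165007084, 178.84 from 165020703 to 165021766 and 764.69 from 165058855 to 165061149. The strongest was above 96.8% of all peaks and 4.28 times the next, and widths were 939 to 2294 bp. The peaks flanking it with other names, 1700025C18Rik and Slc35c2, were 145 kb apart, whereas those flanking Cdh9 were 4748 kb apart.

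The remaining type II cadherins had 1 or 2 peaks. Cdh24, which had 1 peak of 390.71, was the only one of them above the list's median. Cdh12 and Cdh10, brain cadherins, had highest scores of 174.51 and 164.09 with 2 peaks each. Cdh18 had 1 peak of 129.51, and Cdh8, known for synapses of cold-sensing circuits, had 1 of 97.74. Cdh5, the VE-cadherin of blood vessels, and Cdh19, a cadherin of Schwann cell precursors, had none. The depth of the libraries is unknown, so a gene without a peak in the list cannot be called unbound.

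**Figure D4:**
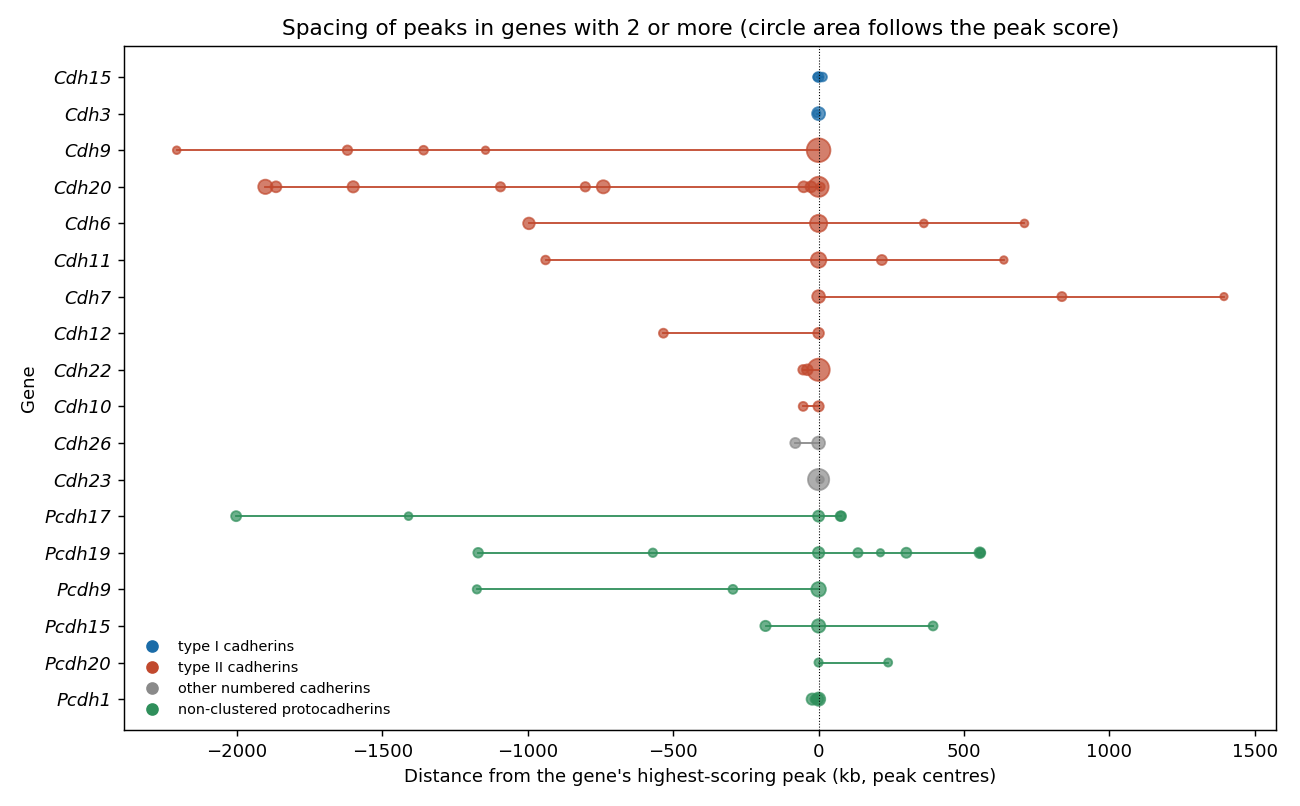
Distance of each peak from the highest-scoring peak of its gene (x axis, kb between peak centres) for the 18 members with 2 or more peaks (y axis, 1 gene per line), with circle area following the authors' score. Type I cadherins form a single clump, whereas the lines of Cdh9, Cdh20 and Pcdh17 reach about as far as their spans of 2209, 1910 and 2082 kb.

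Of the cadherins outside both types, Cdh23 had the strongest peak. Cdh23, a large cadherin of the tip links of hair cells, had 693.12 on chromosome 10 from 60148222 to 60150643 and 87.47 from 60154273 to 60154903. These were 2421 and 630 bp wide and 3.63 kb apart. Cdh26 had 2 peaks with a highest score of 252.35, 81.1 kb from end to end. Cdh13, the T-cadherin, which is anchored by a lipid and lacks a cytoplasmic part, had 1 peak of 188.26. Cdh16, a kidney cadherin, and Cdh17, a cadherin of liver and intestine, had no peak.

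Among the delta2 protocadherins, the strongest single peak and the most numerous weak peaks belonged to different genes. Pcdh8, known as arcadlin in rat, where neuronal activity induces it at synapses, had a single peak on chromosome 14 from 80168072 to 80170832 that scored 1444.93. It was 2760 bp wide, above 99.7% of all peaks, and the highest of the 78. Pcdh10, the OL-protocadherin named for the olfactory and limbic systems, had 1 peak of 334.2 on chromosome 3 from 45184339 to 45185676. Pcdh18 had none.

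Pcdh19, an X-linked gene whose human counterpart is mutated in an epilepsy of girls, had 9 peaks over 1729 kb, all below the list's median. The first 3 had 144.29 from 128496074 to 128496988, 111.84 from 129097074 to 129097606 and 200.3 from 129666856 to 129667920. The next 3 had 132.49 from 129802351 to 129803185, 84.8 from 129879752 to 129880485 and 156.31 from 129968742 to 129969542. The last 3 lay side by side with gaps of under 1 kb: 179.95 from 130221501 to 130222753, 113.49 from 130222876 to 130223603 and 101.85 from 130224049 to 130224925. Joining peaks of 1 gene closer than 10 kb left 7 sites for Pcdh19. The median score of the 789 peaks of chromosome X was 175, below the 210.06 of the whole list, and 2 of the 9 Pcdh19 peaks were above it. Widths were 532 to 1252 bp.

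Pcdh17, which organises synapses between cortex and basal ganglia, had 5 peaks over 2082 kb of chromosome 14. They had 154.98 from 82764571 to 82765207, 94.08 from 83357567 to 83358092, 189.67 from 84767648 to 84768720, 143.17 from 84843003 to 84843583 and 140.32 from 84845618 to 84846817. The last 3 lay within 79.2 kb, and a gap of 1410 kb separated them from the others. Widths were 525 to 1199 bp. The highest score of this gene was 1.22 times the next, and for Pcdh19 the ratio was 1.11.

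The delta1 protocadherins included a compact and a widely spread gene. Pcdh1 had 4 peaks within 22.8 kb of chromosome 18, with 196.73 from 38348938 to 38349757, 100.57 from 38356854 to 38357713, 168.44 from 38369081 to 38370225 and 270.86 from 38370727 to 38371744, each 819 to 1144 bp wide. Pcdh9 had 3 peaks over 1176 kb of chromosome 14, with 107.84 from 92439208 to 92439794, 123.21 from 93319890 to 93320301 and 326.24 from 93613904 to 93615659, each 411 to 1755 bp wide. The nearest peaks with other names on its 2 sides were 9553 kb apart, the widest such interval of all members. Pcdh7 had 1 peak of 528.69 on chromosome 5 from 58108159 to 58111728, which at 3569 bp was the widest of the 78. A peak named 4932441J04Rik lay 0.547 kb from it. Pcdh11x had none.

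Outside the delta groups, Pcdh15, the partner of Cdh23 in the tip links of hair cells, had 3 peaks on chromosome 10. They had 164.12 from 73044960 to 73045755, 277.11 from 73227413 to 73228487 and 125.78 from 73621277 to 73621979, and were 702 to 1074 bp wide. Their span was 577 kb, whereas that of the 2 Cdh23 peaks was 6.68 kb. Pcdh20 had 2 weak peaks, 105.56 and 100.59, over 240 kb. Pcdh12, a protocadherin of blood vessels, had none.

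Promoter windows from RefSeq show the start regions of these genes as sequence. Each window holds 250 bases before and 50 after a gene's start in build GRCm38.p6, which is not the build of the peaks, so no peak was placed on a window. The table held windows for 22 of the 35 genes, 25 in all. The GC box GGGCGG, the classical binding letters of Sp factors, was searched on both strands together with the GT box GGTGTGGG. A GC box was present in 9 of 25 member windows (36%), beside 35.7% of 32851 windows, and a GT box in 0 of 25, beside 2.21%. Of the 10 genes with a window and 3 or more peaks, 5 had a GC box, and of the 11 with 1 or 2 peaks, 3 did. Shown are the gene with the strongest peak (Pcdh8), the genes with the most peaks among type II cadherins (Cdh20) and type I cadherins (Cdh15), and the 2 delta2 protocadherins with many weak peaks (Pcdh19 and Pcdh17). Capitals mark a GC box on either strand, so that CCGCCC is a box on the other strand.
Pcdh8 (chr14:79771263-79771562, minus strand): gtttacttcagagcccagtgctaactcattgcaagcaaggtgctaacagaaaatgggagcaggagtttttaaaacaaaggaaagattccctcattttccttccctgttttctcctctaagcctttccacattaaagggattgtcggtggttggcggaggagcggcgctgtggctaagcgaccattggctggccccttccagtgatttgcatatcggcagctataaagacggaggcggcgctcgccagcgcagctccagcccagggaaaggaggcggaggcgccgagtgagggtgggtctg
Cdh20 (chr1:104768270-104768569, plus strand): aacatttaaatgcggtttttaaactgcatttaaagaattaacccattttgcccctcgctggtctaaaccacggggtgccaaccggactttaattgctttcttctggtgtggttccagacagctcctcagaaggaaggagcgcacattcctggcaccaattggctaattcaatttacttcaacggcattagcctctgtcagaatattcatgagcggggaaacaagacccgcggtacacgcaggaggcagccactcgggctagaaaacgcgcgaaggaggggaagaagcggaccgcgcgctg
Pcdh19 (chrX:133688944-133689243, minus strand): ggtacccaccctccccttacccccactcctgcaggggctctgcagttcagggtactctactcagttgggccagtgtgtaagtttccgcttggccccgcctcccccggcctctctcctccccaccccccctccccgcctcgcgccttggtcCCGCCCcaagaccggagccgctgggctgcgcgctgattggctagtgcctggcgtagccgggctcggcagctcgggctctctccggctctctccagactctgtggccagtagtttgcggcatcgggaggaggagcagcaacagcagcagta
Pcdh17 (chr14:84443313-84443612, plus strand): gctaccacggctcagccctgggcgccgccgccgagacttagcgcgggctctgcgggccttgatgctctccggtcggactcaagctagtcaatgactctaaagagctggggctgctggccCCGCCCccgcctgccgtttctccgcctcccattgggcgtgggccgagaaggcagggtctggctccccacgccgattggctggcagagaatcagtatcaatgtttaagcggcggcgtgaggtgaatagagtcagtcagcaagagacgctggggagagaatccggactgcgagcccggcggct
Cdh15 (chr8:122848124-122848423, plus strand): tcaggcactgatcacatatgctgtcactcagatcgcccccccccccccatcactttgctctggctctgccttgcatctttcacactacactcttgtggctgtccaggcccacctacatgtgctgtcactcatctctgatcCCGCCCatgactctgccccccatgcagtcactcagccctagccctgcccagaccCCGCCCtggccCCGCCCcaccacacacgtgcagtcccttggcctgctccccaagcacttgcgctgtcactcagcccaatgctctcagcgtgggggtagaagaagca
Cdh15 had 3 boxes, Pcdh19 and Pcdh17 had 1 each, and neither the Cdh20 nor the Pcdh8 window held one. The windows of the gene with the highest score and of the gene with the most peaks were thus without a GC box. So were most of the 32851 windows. Among type I cadherins only Cdh15 had a window. A match of letters is not a bound site, and a window without a match says only that these letters are not in it.

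Most partners of cadherins had a linked peak too. Of 13 catenins and other adhesion partners, 11 had a peak (84.6%, exact interval 54.6 to 98.1%), beside 55.4% of coding genes. The same 11 of 13 had one that reached the list's median, beside 35.4% of all coding genes. They had 30 peaks in all, or 2.31 per gene. The most were linked to Nectin3 (7 peaks over 881 kb, highest score 869.87), an adhesion protein that works beside cadherins and is listed as Pvrl3. Ctnnd2, the neuronal delta-catenin that binds the cadherin tail, had 6 peaks over 596 kb with a highest score of 970.54. Ctnna3, an alpha-catenin, had 6 over 351 kb (366.63), and Nectin1, listed as Pvrl1, 3 over 60.6 kb (610.58). Ctnnd1 and Nectin4 had none.

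More distant relatives had fewer peaks per gene than the numbered genes, at 1.44 beside 2.23, and more than the 0.819 of all coding genes. Of 16 other genes with cadherin repeats, 11 had a peak (68.8%, exact interval 41.3 to 89.0%), beside 55.4% of coding genes. Of the 16, 9 had one that reached the median (56.3%), beside 35.4% of coding genes, and there were 23 peaks in all. Celsr2, a planar polarity cadherin, had 5 peaks within 14.9 kb and a highest score of 659.54. Fat3, a giant cadherin of dendrite patterning in retina, had 4 over 558 kb (349.95), and Fat4, 3 over 718 kb (628.47). Ret, the receptor for Gdnf, which carries cadherin-like repeats, had 2 over 19.6 kb (657.1). Fat2, Dchs2, Clstn3, Dsc2 and Cdhr1 had none. The 6 genes of this list with 2 or more peaks had a median span of 17.2 kb, and the 5 of the partner list had 351 kb, beside 556 kb for the 18 numbered cadherins and protocadherins.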

How the data were processed

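Sp9 was mapped by chromatin immunoprecipitation and sequencing (2 Sp9 libraries, 1 input library). Per the labels' protocols, fixation with formaldehyde (1%) lasted 10 min, chromatin was sheared to 200 to 1000 bp, and paired reads of 150 bases were taken. The submitters' processing notes name the aligner Bowtie2 2.2.4, the peak caller MACS 1.4.2 and the mouse build mm9, without settings. The authors deposited 1 list of shared peaks, each with a score and a gene name. Not given in the sources used here are how the score was computed, when a peak counted as shared, which annotation named it and whether the 2 immunoprecipitations used separate bulbs. Library depth is unknown.

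Gene names were matched to a RefSeq table (assembly GRCm38.p6) by symbol, then by a synonym of only 1 gene; all 28 member names and 13333 of 13383 names matched. Only names and gene class were used. Counts, spans and gaps were computed with Python 3.11.15, pandas 2.3.3 and scipy 1.17.1 (exact Clopper-Pearson intervals at 95%) and checked on simulated lists. Promoter windows came from RefSeq. No test was run, since no value per library is listed. The members, classes and gene lists were chosen with earlier results of these data known, and classes follow general knowledge of the family. All 35 genes are named; genes with 3 or more peaks and the highest-scoring gene of each class are described in full. Alternatives were a higher score threshold, joined peaks, other classes, another background and leaving out 1 gene.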

Additional observations from a re-analysis of the deposited data

How the results depend on the processing

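Of 21 alternative values counted, 14 stayed within 1.5 times of the value reported, and 7 did not. The cause was not tested. The 14 include median spans with peaks joined within 10 kb, which can change only where a gene falls to 1 site. No type II cadherin or non-clustered protocadherin with 2 or more peaks did, so these spans stayed at 1486 and 877 kb. With peaks of a score of at least 500, 8 genes in place of 28 had a peak. With peaks at or above the list's median, 19 genes had one, and peaks per gene were 0.692 for type II cadherins, 0.5 for non-clustered protocadherins and 0.8 for type I cadherins, so that type I then had the most per gene. The median span was 7.04 kb for type I cadherins without Cdh15, where Cdh3 alone is left, 577 kb for protocadherins without Pcdh17, and 1453 kb with the delta protocadherins only. Without receptor families, 58.7% of 20379 coding genes had a peak. With peaks at or above the list's median, no type I cadherin or protocadherin had 2 peaks left, so their spans could not be computed. Among type II cadherins only Cdh20 did, with 3 peaks over 1904 kb. The other spans of at least 1 Mb thus rested on peaks below the list's median, wholly for Pcdh17 and Pcdh19 and in part for the rest. Leaving out a library was not possible. No paired analysis was possible because the list holds no value per library and the input has 1 library. Depth is unknown, which limits what can be said of genes without a peak. Spans depend on how the authors gave names to peaks, which is not stated.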

Other observations

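Several members lay next to each other on their chromosomes; these stretches were picked with their values in view. On chromosome 15 the peaks of Cdh6, Cdh9, Cdh10, Cdh12 and Cdh18, all type II cadherins, followed one another from 13102762 to 23227685. Of the 16 peaks in this stretch of 10.1 Mb, 14 carried these names and the other 2 the name Acot10. There were 1.58 peaks per Mb there, beside 8.70 per Mb over chromosome 15. On chromosome 14 the stretch from the first Pcdh17 to the last Pcdh9 peak, 10.9 Mb long, held 15 peaks, 10 of them named for Pcdh17, Pcdh20 or Pcdh9, or 1.38 per Mb beside 5.48 per Mb over that chromosome. Other stretches held more peaks with other names. From the first Cdh20 to the last Cdh7 peak on chromosome 1, 16 of 29 peaks had other names, at 3.97 peaks per Mb beside 6.07 over the chromosome. From Cdh8 to the last Cdh11 peak on chromosome 8, 5 of 10 peaks were named A330008L17Rik, at 2.97 per Mb beside 8.57. The Cdh3 and Cdh1 peaks on that chromosome lay close together, with 3 peaks in 99.3 kb.

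The clustered protocadherins, which sit together on chromosome 18, differed in layout from the single genes. Of 57 such coding genes, 30 had a linked peak (52.6%, exact interval 39.0 to 66.0%, beside 55.4% of coding genes), with 33 peaks in 892 kb and at most 2 for any name. Their peaks had a median score of 154, beside 156 for the single cadherin and protocadherin genes, and 4 of the 57 (7.02%) had a peak that reached the list's median, beside 35.4% of coding genes.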
